A study of Mus musculus with 2 samples.

Results

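The genes described here are *Bnip3l*, *Pink1*, *Map1lc3a*, *Map1lc3b*, *Gabarapl1*, *Gabarapl2*, *Sqstm1*, *Ulk1* and *Foxo3*, 9 of the 27998 genes counted in a CITE-seq experiment on mouse fetal liver. They were chosen by symbol as parts of the mitophagy and autophagy machinery, by a rule that uses no measured value, although earlier results of these data were known when they were chosen. The question asked of the data is how their transcripts vary along erythroid differentiation, as staged by the surface proteins Ter119 and CD71. All 9 reached the minimum of 50 unique molecular identifiers (UMIs, counted transcripts) in every pair of populations compared below.

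Autophagy encloses a portion of cytoplasm in a double membrane and delivers it to lysosomes. The kinase ULK1 starts the process, proteins of the ATG8 family (the LC3 and GABARAP proteins) are joined to lipid on the growing membrane, and receptors such as p62, encoded by *Sqstm1*, tie cargo to them. In mitophagy the cargo is a mitochondrion, marked either by a receptor in its outer membrane, such as NIX, encoded by *Bnip3l*, or by the kinase PINK1 together with the ubiquitin ligase parkin. Red cells lose their mitochondria as they mature, and NIX is known for its part in that clearance. FOXO3 is a transcription factor with known targets among autophagy genes and in erythroid maturation.

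The cells came from the pooled livers of 7 C57BL/6 embryos at e13.5, and neither a genetic change nor a drug treatment is named for any of them. Cells carrying Ter119 were depleted magnetically and an equal number of them was then added back, so the proportions of early and late cells were set by the experiment. All 7863 cells went through 1 cDNA library, each with its antibody counts and no barcode listed more than once, so there are no replicates and no p-value is given. Cells are not replicates, the embryos cannot be told apart, and the bracketed 95% intervals cover counting error only, not differences between animals, libraries or gates.

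Each antibody carried a DNA barcode that was read out with the transcripts, and 2 of the 10 barcodes stage the cells. They are printed because every comparison below rests on their counts.
Ter119: gaggcgattgat
CD71: cgaagaaggagt

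Ter119 is an erythroid surface antigen that appears late, and CD71 is the transferrin receptor, which brings iron into cells that make haemoglobin. Of 7244 cells that passed the quality limits, 6424 had low counts of 5 antibodies against other lineages. All but 217 of them were divided into S0-low, S0-medium, S1, S2, S3 and S4/S5, the names used by the study, with 1510, 1054, 612, 1295, 838 and 898 cells. The median Ter119 count was 4, 8, 14, 51, 124 and 155.5 in that order, and the median CD71 count was 69, 428, 1149.5, 1611, 1398.5 and 289. The gate positions are not given in the sources used here, so the populations were rebuilt from the counts.

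Some facts of the library bear on every value. The median depth per cell ranged from 3949 UMIs in S4/S5 to 10282 in S0-medium. Globin transcripts made up 1.05% of all UMIs in S0-low, 13.1% in S2, 37.6% in S3 and 64.0% in S4/S5. CPM, a gene's UMIs per 1000000 UMIs of the cell averaged over cells, is the main unit, and the share of globin lowers this value for every other gene. Non-globin CPM, with globin left out of the cell's total, and plain UMIs per cell are therefore given beside it. Leaving out globin raises a cell's value most where its globin share is high, so such cells weigh more in mean non-globin CPM. In S0-low *Bnip3l* was at 266 CPM and 286 non-globin CPM, further apart than the 1.05% of globin in the summed UMIs alone would give. S0-low was mixed: 379 of its cells, or 25.1%, lay in clusters named myeloid-like, megakaryocyte-like, macrophage-like or hepatocyte-like, against under 1% of every other population. With unnamed clusters low in the erythroid genes *Klf1* and *Epor* left out as well, a choice made after seeing the data, 788 of its 1510 cells remained. These clusters included 1 with *Gata2* and *Cpa3* among its top genes, at 44.2% of the *Klf1* and *Epor* level over all cells. Another, at 44.4%, had the embryonic globin genes *Hbb-y* and *Hba-x* among its top genes. The study describes S0-low as early progenitors, so this choice may also remove cells that belong there. The summed level of 6 hepatocyte markers was 6244 CPM in S0-low and between 394 and 684 CPM elsewhere, and that of 8 myeloid markers was 735 CPM against 71.1 to 197 CPM. That of 4 early progenitor markers was 617 CPM against 31.4 to 56.3 CPM. The summed level of 9 erythroid markers, globin included, was 11981 CPM in S0-low and 629541 CPM in S4/S5.

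*Bnip3l* and *Gabarapl2* had the largest increases among the 9 genes, and *Map1lc3a* and *Ulk1* were low throughout. *Gabarapl1* was lower in S3 and S4/S5 than in S0-low in CPM and in UMIs per cell. In S3 compared with S0-low, the ratio of mean CPM was 2 or more for 4 genes, *Bnip3l*, *Gabarapl2*, *Foxo3* and *Map1lc3b*, and 0.5 or less for 1 gene, *Gabarapl1*. Of the 9407 genes with 50 UMIs or more in these populations together, 5.76% were at least 2-fold higher and 70.8% at least 2-fold lower, and their median ratio was 0.310. Most genes were thus lower in CPM in S3, and the upper quartile of the ratios over all genes was 0.568. Of these 9 genes 7 had a ratio over 1, the lowest of them *Ulk1* at 1.55 (1.01–2.36). In non-globin CPM, 7 of the 9 genes were at least 2-fold higher (10.7% of all genes) and none was 2-fold lower (49.0%), and the median of all genes was 0.511. In UMIs per cell, 2 genes, *Bnip3l* and *Gabarapl2*, were at least 2-fold higher (3.93%) and *Gabarapl1* was lower (78.4%).

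**Figure D1:**
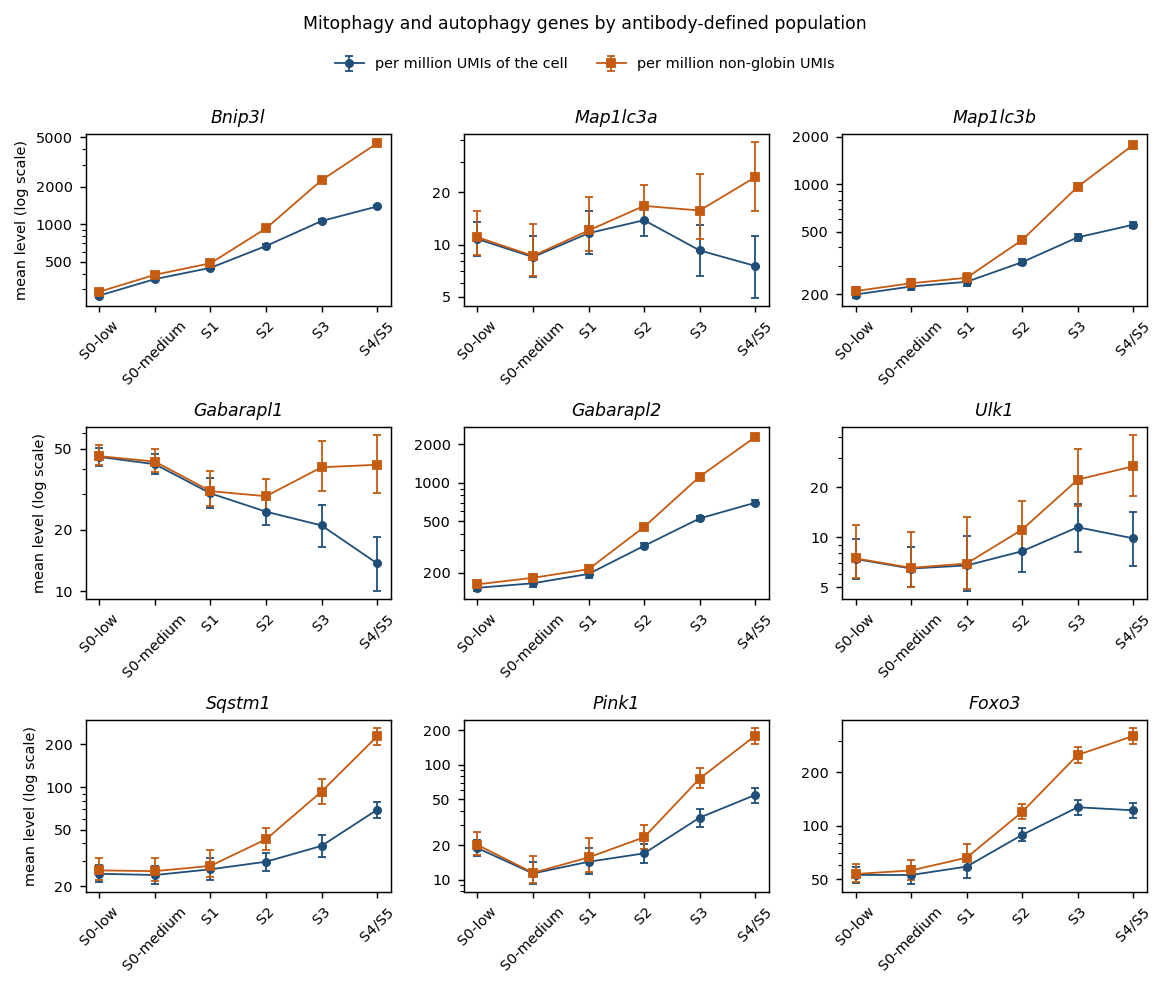
Mean level of each of the 9 genes in the 6 populations, on a log axis, in CPM (blue circles) and in non-globin CPM (orange squares). Points are means over cells and bars are 95% intervals for counting error in 1 library. *Bnip3l*, *Gabarapl2* and *Map1lc3b* climb through the populations in both units, while *Gabarapl1* is lower in S4/S5 than in S0-low in CPM and near its S0-low level in non-globin CPM.

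**Figure D2:**
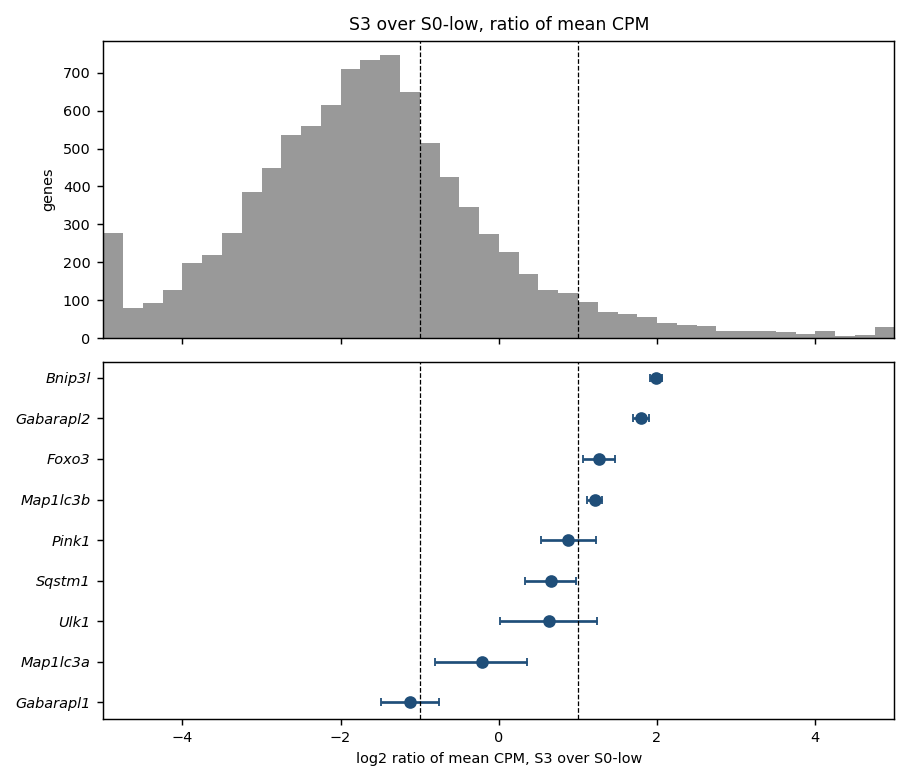
Top, number of genes by log2 ratio of mean CPM in S3 over S0-low for all 9407 measured genes, with values beyond the axis placed in the end bins. Bottom, the ratio of each of the 9 genes with its 95% interval for counting error; dashed lines mark 2-fold. The 9 genes lie between 0.460 for *Gabarapl1* and 3.97 for *Bnip3l*, all above the median of 0.310 over all genes.

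*Bnip3l* encodes NIX, the mitophagy receptor of the outer mitochondrial membrane. Its mean level in the 6 populations, in order from S0-low to S4/S5, was 266, 361, 445, 667, 1058 and 1385 CPM, from 2488 to 5443 UMIs per population. Each population was higher than the one before by more than counting error, and no neighbours overlapped. The step from S1 to S2 lay between 1.42-fold and 1.58-fold, and the later steps were 1.59-fold (1.52–1.66) from S2 to S3 and 1.31-fold (1.25–1.37) from S3 to S4/S5. From S0-low to S4/S5 the increase was present in each unit, although from S1 to S2 the UMIs per cell did not differ beyond counting error (1.03, 0.986–1.08). In non-globin CPM *Bnip3l* went from 286 in S0-low to 4466 in S4/S5, and in UMIs per cell from 1.92 to 5.64. The count per cell was thus higher although the median depth of a cell was lower in S4/S5 than in S0-low. The median cell held 221 CPM of *Bnip3l* in S0-low and 1261 CPM in S4/S5, and the middle 50% of cells spanned 0 to 382 CPM and 794 to 1795 CPM, so the quartile ranges did not overlap. With each cell thinned to 2000 UMIs, a *Bnip3l* UMI was found in 39.7%, 49.1%, 58.3%, 69.7%, 82.0% and 91.2% of cells in the 6 populations. No cell was shallower than that. In S3 over S0-low the ratio of mean CPM was 3.97 (3.76–4.19), and 3.42 (3.24–3.62) without the cells of the named non-erythroid clusters.

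*Pink1* encodes the kinase that gathers on damaged mitochondria. From S0-low to S4/S5 its level was 18.9, 11.4, 14.4, 17.0, 34.7 and 54.6 CPM, from 86 to 207 UMIs per population. It was lower in S0-medium than in S0-low (ratio 0.602, 0.461–0.783), did not differ beyond counting error between S0-medium and S1 or between S1 and S2, and was higher at each later step. From S2 to S3 it was 2.04-fold higher (1.57–2.66), the only one of the 9 genes past 2-fold at this step, where 1.53% of all genes were past 2-fold upward and 31.7% downward. In non-globin CPM 6 of the 9 genes, all but *Gabarapl1*, *Map1lc3a* and *Ulk1*, were past 2-fold upward at this step, against 4.84% of all genes upward and 7.66% downward, and in UMIs per cell none was, against 1.03% and 56.6%. The 2-fold call of *Pink1* was lost in UMIs per cell (1.56) and when the antibody classes came from a Gaussian mixture (1.80). Over all cells of the named non-erythroid clusters, inside S0-low or not, *Pink1* was at 28.9 CPM in the myeloid-like, 29.4 CPM in the hepatocyte-like, 31.0 CPM in the megakaryocyte-like and 9.47 CPM (3.40–28.9) in the macrophage-like cluster. In S3 over S0-low its ratio was 1.84 (1.44–2.34) for all cells and 2.25 (1.70–2.98) without the named non-erythroid clusters. With the clusters low in *Klf1* and *Epor* left out as well, the ratio was 3.41 (2.40–4.93) and that of S1 over S0-low turned from 0.761 to 1.39. With antibodies as log10(count + 1) the same ratios were 1.11 (0.861–1.44) and 0.452, so the size of the *Pink1* difference varied with how the populations were drawn.

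The other mitophagy receptor of the same family, *Bnip3*, was lower in later populations in CPM. It stood at 51.8 CPM in S0-low, 31.2 CPM in S1, 23.3 CPM in S3 and 22.7 CPM in S4/S5, while its non-globin CPM was 53.1 in S0-low and 79.3 in S4/S5, so its direction depended on the unit. *Park2*, which encodes parkin, was at the edge of detection, with 3, 1 and 4 UMIs in S0-low, S0-medium and S2, and 0 in S1, S3 and S4/S5. The 0 UMIs in S4/S5 allow up to 3 counts of the population's summed UMIs, or 0.778 CPM pooled over its cells, and the 95% interval of the mean over cells reaches 1.64 CPM.

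The ATG8 family holds 4 of the 9 genes, which differed among themselves. *Gabarapl2*, whose protein is also known as GATE-16, had a level of 152, 165, 195, 323, 528 and 700 CPM from S0-low to S4/S5. In CPM every step was upward beyond counting error, the first, of 1.08-fold, only just, with the largest from S1 to S2 at 1.65-fold (1.53–1.79), a step that in UMIs per cell was within counting error (1.05, 0.983–1.13). In S3 over S0-low the ratio was 3.47 (3.23–3.73). Like *Bnip3l*, it was higher in S4/S5 than in S3 in all units, by 1.33-fold in mean CPM, 2.03-fold in non-globin CPM and 1.12-fold in UMIs per cell. *Map1lc3b*, which encodes LC3B, the protein most used to follow autophagosomes, had a level of 199, 224, 239, 319, 460 and 553 CPM. S0-medium and S1 did not differ beyond counting error (1.07-fold, 0.991–1.16) and the other steps were upward in CPM, but from S1 to S2 the direction turned with the unit, at 1.33-fold in CPM and 0.849 (0.796–0.905) in UMIs per cell. Its ratio in S3 over S0-low was 2.31 (2.16–2.48), and it was below 2-fold in UMIs per cell (1.42–1.60). From S3 to S4/S5, *Map1lc3b* was 1.20-fold higher (1.13–1.29) in mean CPM, while its UMIs per cell were level at 2.30 and 2.27.

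*Gabarapl1*, a close relative of GABARAP, was the member with the reverse pattern in CPM. In the same order its level was 45.6, 42.0, 30.2, 24.6, 21.0 and 13.7 CPM. The steps from S0-medium to S1 (0.719, 0.592–0.870) and from S3 to S4/S5 (0.651, 0.441–0.951) were downward beyond counting error. In S3 over S0-low the ratio was 0.460 (0.355–0.590), above the median of 0.310 of all genes, so the gene was lower in S3 but less so than the typical gene. In non-globin CPM the same ratio was 0.882 (0.664–1.15), within counting error of no difference. The ratio of S3 over S2 turned to 1.39 (1.02–1.87) in that unit, upward beyond counting error, and that of S4/S5 over S3 to 1.03 (0.682–1.54). In UMIs per cell *Gabarapl1* went from 0.340 in S0-low to 0.0579 in S4/S5. *Map1lc3a*, which encodes LC3A, was measured with only 30 to 131 UMIs per population and lay between 7.53 and 13.8 CPM. Of its steps in CPM only S2 to S3 (0.670, 0.450–0.979) was beyond counting error, and in non-globin CPM that step was not (0.940, 0.609–1.42). Its direction from S0-low to S4/S5 turned with the unit, at 2.22 (1.33–3.56) in non-globin CPM and 0.410 (0.266–0.615) in UMIs per cell. Its ratio in S3 over S0-low was 0.860 (0.572–1.27) and turned to 1.33 (0.820–2.15) without the named non-erythroid clusters, where it was highest in the hepatocyte-like cells at 40.6 CPM. *Gabarap*, another gene of the family and not among the 9, was at 170 CPM in S0-low, 255 CPM in S3 and 189 CPM in S4/S5.

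Because the 5 ATG8 transcripts, *Gabarap* included, were counted in the same cells, their shares of the family's UMIs use no total in which globin counts. *Gabarapl2* made up 25.9% of the family's 6604 UMIs in S0-low (24.8–27.0) and 47.3% of 5484 UMIs in S4/S5 (46.0–48.6). *Gabarap* made up 29.5% and 14.0%, and *Gabarapl1* 7.78% and 0.948%. *Map1lc3b* kept a share between 33.9% and 37.8% in all 6 populations. The summed share of *Gabarapl2* and *Map1lc3b* was 84.5% in S4/S5 against 60.8% in S0-low. Counting of 3′ ends need not capture each gene equally well, so shares are compared between populations and not between genes. The non-erythroid clusters had other mixtures, with *Gabarap* at 54.5% in the macrophage-like and *Gabarapl1* at 10.6% in the megakaryocyte-like cells.

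**Figure D3:**
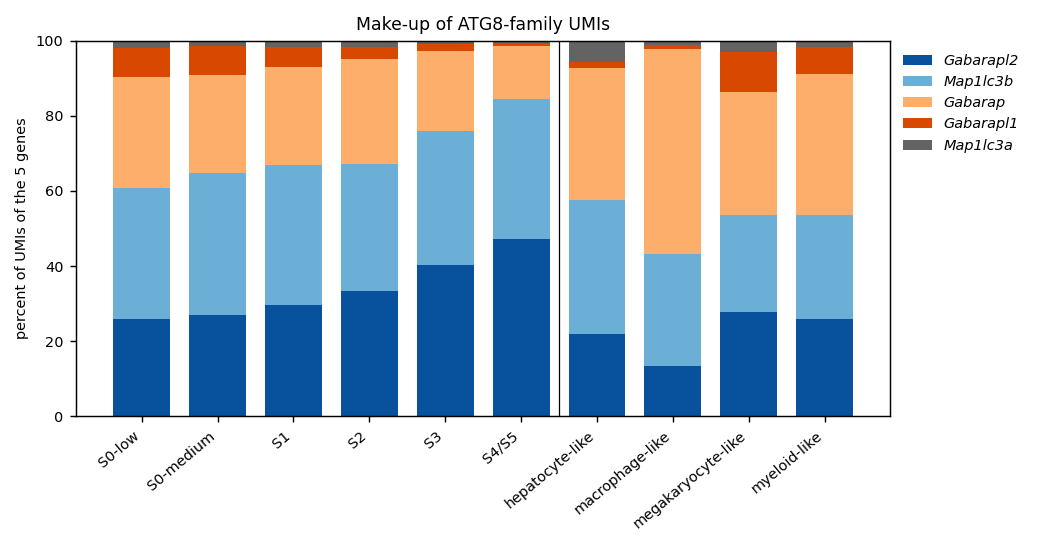
Share of each of the 5 ATG8-family genes in the family's summed UMIs (percent), for the 6 erythroid populations and, right of the line, 4 named non-erythroid clusters. The share of *Gabarapl2* grows from 25.9% in S0-low to 47.3% in S4/S5, while those of *Gabarap*, *Gabarapl1* and *Map1lc3a* shrink.

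*Sqstm1* encodes p62, the receptor that ties ubiquitin-marked cargo to ATG8 proteins. Over the first 4 populations it was at 24.5, 24.0, 26.3 and 29.7 CPM, with no step beyond counting error in that unit. From S1 to S2 the other units went opposite ways, to 1.54-fold (1.20–1.98) in non-globin CPM and 0.701 (0.577–0.853) in UMIs per cell. S3 and S4/S5 were at 38.5 and 69.2 CPM. The step from S3 to S4/S5 was 1.80-fold (1.45–2.24), a larger ratio than those of 99.6% of all 5556 genes measured there. At this last step none of the 9 genes was past 2-fold in mean CPM, where 0.27% of all genes were past 2-fold upward and 42.5% downward, with a median ratio of 0.532. In non-globin CPM 3 genes were past 2-fold, *Sqstm1* at 2.45, *Pink1* at 2.36 and *Gabarapl2* at 2.03, against 2.99% of all genes upward and 7.92% downward, and in UMIs per cell none was, against 0.108% and 73.4%. In UMIs per cell *Sqstm1* was at 0.195, 0.253, 0.288, 0.202, 0.185 and 0.287 from S0-low to S4/S5, so S1 was level with S4/S5 in that unit. S3 over S0-low turned from 1.57 (1.26–1.96) in CPM to just under 1 in UMIs per cell (0.777–1.16). The increase from S3 to S4/S5 was present in all 3 units. Another cargo receptor, *Ncoa4*, which delivers ferritin for breakdown, had only 7 to 16 UMIs per population, too few for a ratio.

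*Ulk1*, the kinase that starts autophagy, was measured with only 34 to 80 UMIs per population. The levels were 7.39, 6.47, 6.75, 8.23, 11.5 and 9.84 CPM from S0-low to S4/S5. In CPM no step between neighbours was beyond counting error, and S3 was 1.55-fold above S0-low with an interval that nearly reached 1 (1.01–2.36). In non-globin CPM the steps from S1 to S2 and from S2 to S3 (1.24–3.21) were upward beyond counting error and S3 over S0-low was 2.98 (1.89–4.61), while in UMIs per cell the latter was 1.04 (0.705–1.51).

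*Foxo3* encodes the transcription factor of the list, and its level stopped climbing before the last population. It stood at 52.7, 52.7, 58.7, 88.7, 127 and 122 CPM from S0-low to S4/S5. In CPM the first 3 populations did not differ beyond counting error, nor did S3 and S4/S5 (0.961, 0.838–1.10). S2 was 1.51-fold above S1 (1.28–1.78) and S3 was 1.43-fold above S2 (1.26–1.62). In UMIs per cell S0-medium was already above S0-low (1.21, 1.06–1.38). S1 over S0-low was 1.36 (1.17–1.58) in that unit and 1.24 (1.02–1.49) in non-globin CPM. In CPM it was 0.859 with antibodies scaled within each cell. In UMIs per cell *Foxo3* was at 0.613 in S3 and 0.496 in S4/S5, a ratio of 0.808 (0.710–0.919). In non-globin CPM the same ratio was 1.28, so the direction of the last step depended on the unit. Its ratio in S3 over S0-low was 2.41 (2.09–2.76), or 1.82 in UMIs per cell.

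In non-globin CPM, S1 over S0-low and S2 over S1 held fewer members past 2-fold than S3 over S2 and S4/S5 over S3. In CPM and in UMIs per cell none of these comparisons held more than 1. In S1 over S0-low no member was past 2-fold, against 3.63% of all genes upward and 20.3% downward, nor was any in non-globin CPM, against 3.93% and 19.9%. *Bnip3l* was past it in UMIs per cell, at 2.12, against 7.51% upward and 13.4% downward. The ratios of mean CPM ran from 0.662 (0.546–0.799) for *Gabarapl1* to 1.67 (1.57–1.78) for *Bnip3l*. With the clusters low in *Klf1* and *Epor* left out as well, these 2 ratios were 0.594 and 1.40, the latter outside its counting interval. In S2 over S1 no member was past 2-fold either, against 2.09% upward and 14.8% downward, nor in UMIs per cell, against 0.779% and 37.3%. In non-globin CPM *Gabarapl2* was, against 4.28% upward and 9.46% downward. The 3 highest ratios there were those of *Gabarapl2*, *Foxo3* and *Bnip3l*.

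To see where along the antibody scales these differences lay, Ter119-low cells were ordered by rising CD71 in 8 groups, S2 cells by rising Ter119 in 4, and Ter119-high cells by falling CD71 in 6. *Bnip3l* was higher in each group than in the one before from 207 CPM in the first to 462 CPM in the eighth, from 560 to 810 CPM within S2, and from 883 CPM in group 13 to 1457 CPM in group 17, before 1301 CPM in group 18. *Gabarapl2* kept within 138 and 204 CPM over the Ter119-low groups and went from 246 to 448 CPM within S2. *Map1lc3b* likewise lay between 184 and 247 CPM in the Ter119-low groups. In CPM both thus varied more once Ter119 had appeared. In UMIs per cell *Map1lc3b* was already at its highest in S1, at 2.41 against 1.53 in S0-low and 2.27 in S4/S5, and *Gabarapl2* was at 1.13 in S0-low, 1.91 in S1 and 2.89 in S4/S5. *Foxo3* was highest in group 15, at 142 CPM (120–167), an interval that held groups 14, 16 and 17. It was at 86.3 CPM (69.4–107) in the last group, where CD71 was lowest. In non-globin CPM the highest group was 17 for *Foxo3*, at 345 against 265 in group 18, and group 18 for *Bnip3l*, at 4910. In CPM *Pink1* was at 30.3 CPM in the first group, 8.17 CPM in the fourth and 60.7 CPM in group 16. The first group, with the lowest CD71, lies wholly in the Ter119-low gate that holds S0-low, and the part of its other cell types in this *Pink1* level was not tested.

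**Figure D4:**
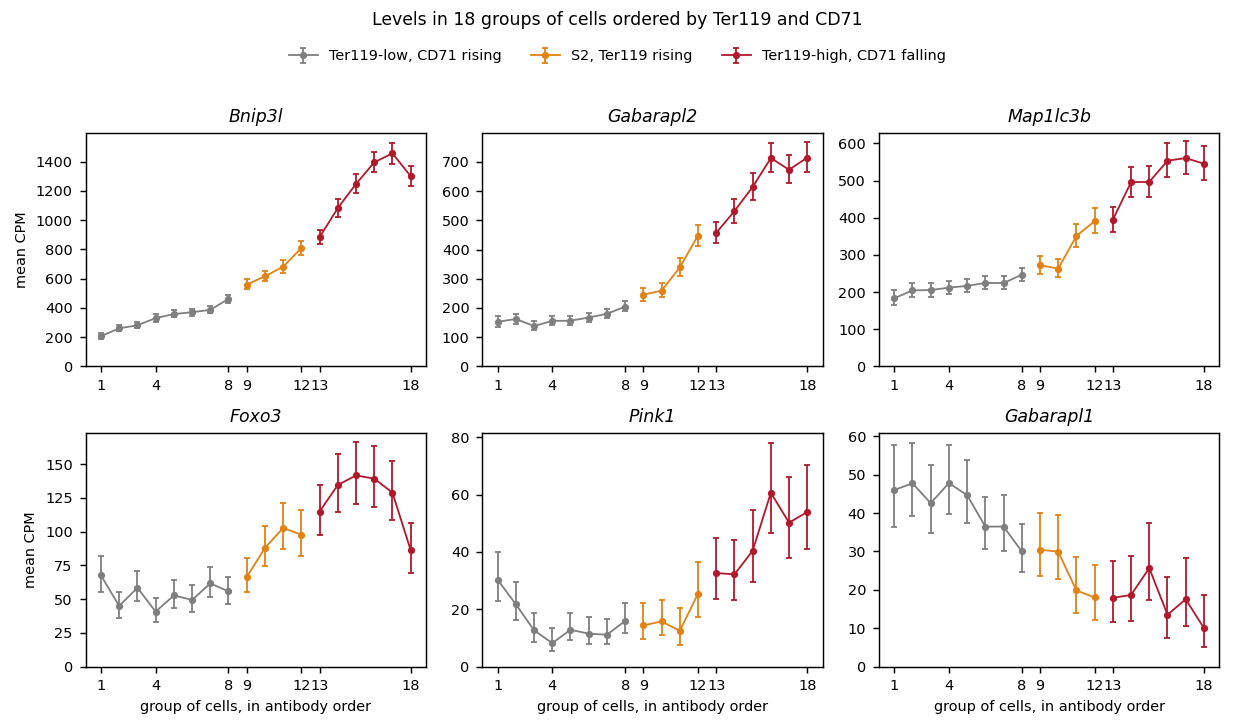
Mean CPM of 6 of the 9 genes in 18 groups of cells, in antibody order: Ter119-low cells by rising CD71 (1 to 8, grey), S2 cells by rising Ter119 (9 to 12, orange) and Ter119-high cells by falling CD71 (13 to 18, red). Bars are 95% intervals for counting error. *Foxo3* is highest at 142 CPM (120–167) in group 15, an interval that holds groups 14, 16 and 17. *Bnip3l* is highest at 1457 CPM in group 17. In non-globin CPM, not drawn, the highest groups are 17 and 18. *Pink1* dips to 8.17 CPM in group 4.

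The mitochondria themselves leave a trace in the counts, since 13 proteins are encoded by the mitochondrial genome. Their transcripts made up 4.54% of non-globin UMIs in S0-low, 5.13% in S1, 5.11% in S2, 4.59% in S3 and 3.65% in S4/S5. Per cell there were 346, 470, 509, 317, 154 and 56.4 such UMIs in the same populations. All non-globin UMIs were also fewer in late cells, with a median of 6077.5 per cell in S0-low and 1243 in S4/S5. The mitochondrial share was thus lowest in the population with the most *Bnip3l*, *Pink1* and *Sqstm1* in CPM and in non-globin CPM. In UMIs per cell *Sqstm1* was as high in S1. Between S0-low and S1, however, the share and *Bnip3l* were both higher in the later population. Cells with mitochondrial transcripts over 9% of all their UMIs, globin included, were left out. This limits the upper range of the non-globin share but not the lower, and less strictly where globin is high, as in S4/S5. These counts are of RNA, not of mitochondria.

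The genes most alike to each member over the 18 groups were found by the correlation of log2(mean CPM + 10) across 7647 genes. This is a description of groups that share 1 library, the globin share and the depth. Among the genes most like *Bnip3l* were *Gadd45a*, a stress-response gene (Pearson r = 0.996), and *Mpp1*, a membrane skeleton gene of red cells (0.988). *Map1lc3b* and *Gabarapl2* were among the 3 most alike genes of each other (0.992), and both had *Adipor1*, an adiponectin receptor gene, in first place (0.994 and 0.996). *Foxo3* was most like *Malat1*, a nuclear long non-coding RNA, *Pim1*, a kinase gene (both 0.970), and *Abtb1* (0.965). *Sqstm1* was most like the ubiquitin gene *Ubb* (0.957), followed by *Pabpc1* and *Sertad1*. *Ncf4* (0.973) and *Ccng2* were among the genes most like *Pink1*, and *Cnpy2* and *Zkscan1* (both 0.969) among those most like *Gabarapl1*. For the low genes the likeness was weak, at most 0.651 for *Map1lc3a* (*Spidr*, *Btbd10* and *Ngly1*) and 0.762 for *Ulk1* (*Pnpla8*, *Trim23* and *Trim56*).

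The 9 genes were set beside 99 autophagy and lysosome genes in 11 groups by role, in which they are included. Of the 92 genes of this set with enough UMIs in S3 and S0-low, 8 were at least 2-fold higher in S3 and 48 at least 2-fold lower, with a median ratio of 0.477, against 0.310 for all genes. Over all genes 5.76% were at least 2-fold higher and 70.8% lower. In non-globin CPM the counts were 23 and 26, against 10.7% and 49.0% of all genes. In UMIs per cell they were 6 and 56, against 3.93% and 78.4%. Of these higher and lower genes, the 9 members gave 4 and 1 in CPM, 7 and 0 in non-globin CPM, and 2 and 1 in UMIs per cell. The counts of the wider set thus repeat in part those of the members. The group counts that follow are in CPM, for S3 over the mixed S0-low. In the lysosome group 1 of 15 genes was higher and 12 were lower, and in the class III PI3K complex, which makes the lipid that marks the growing membrane, 0 of 7 were higher and 5 lower. Of the ATG8 conjugation genes 2 of 10 were higher and 6 lower, of the ULK complex 0 of 5 higher and 2 lower, of the genes for fusion with lysosomes 0 of 12 higher and 5 lower, and of mTORC1 and AMPK control 0 of 12 higher and 6 lower. Of the mitophagy receptors and PINK1 pathway 1 of 8 was higher and 5 lower, of the membrane supply genes 1 of 7 higher and 2 lower, of the cargo receptors 0 of 6 higher and 1 lower, of the transcription factors 1 of 5 higher and 3 lower, and of the ATG8 family 2 of 5 higher and 1 lower. *Bnip3l*, *Foxo3*, *Gabarapl2* and *Map1lc3b*, all members, were the only higher genes of their groups, and the lower ATG8 gene was the member *Gabarapl1*. In every group but the ATG8 family more genes were lower than higher in CPM, where 70.8% of all genes were past 2-fold downward. In non-globin CPM this no longer held for membrane supply (3 higher, 0 lower), cargo receptors (3 and 1), the ULK complex (2 and 1), transcription factors (2 and 1) and mTORC1 and AMPK control (1 and 1). The ATG8 family had 1 gene higher and 1 lower in UMIs per cell. In CPM, 1 of 15 lysosome genes was higher and 6 were lower already in S1 over S0-low, against 3.63% and 20.3% of all genes. In S3 over S2, 0 of 14 were higher and 2 lower, against 1.53% and 31.7%. The group counts were not recomputed without the other cell types of S0-low, so their part in these counts was not tested.

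The largest ratios of the wider set were those of *Atg4d* (4.41, 3.72–5.23) and *Atg4a* (4.26, 3.18–5.74), which encode proteases that trim ATG8 proteins, and of *Ctsb*, the lysosomal protease cathepsin B (4.36, 4.05–4.69). *Atg4d* was at 25.4 CPM in S0-low, 112 CPM in S3 and 46.7 CPM in S4/S5. *Ctsb* was at 131, 570 and 651 CPM in the same populations and *Atg4a* at 9.12, 38.9 and 44.9 CPM. In CPM and in non-globin CPM *Atg4d* was highest in S3, and *Ctsb* and *Atg4a* were highest in S4/S5. Per cell, without a total, the UMIs of each of these genes were highest in S2. The smallest ratios were those of *Cd63*, a membrane protein of late endosomes (0.0555, 0.0365–0.0811), *Pik3c3*, the catalytic subunit of the class III PI3K (0.0633, 0.0170–0.169), and its partner *Pik3r4* (0.0712, 0.0122–0.233). *Pik3c3* and *Pik3r4* rest on 5 and 4 UMIs in S3, and *Cd63* was at 128 CPM in the mixed S0-low and 17.4 CPM in S0-medium.

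**Figure D5:**
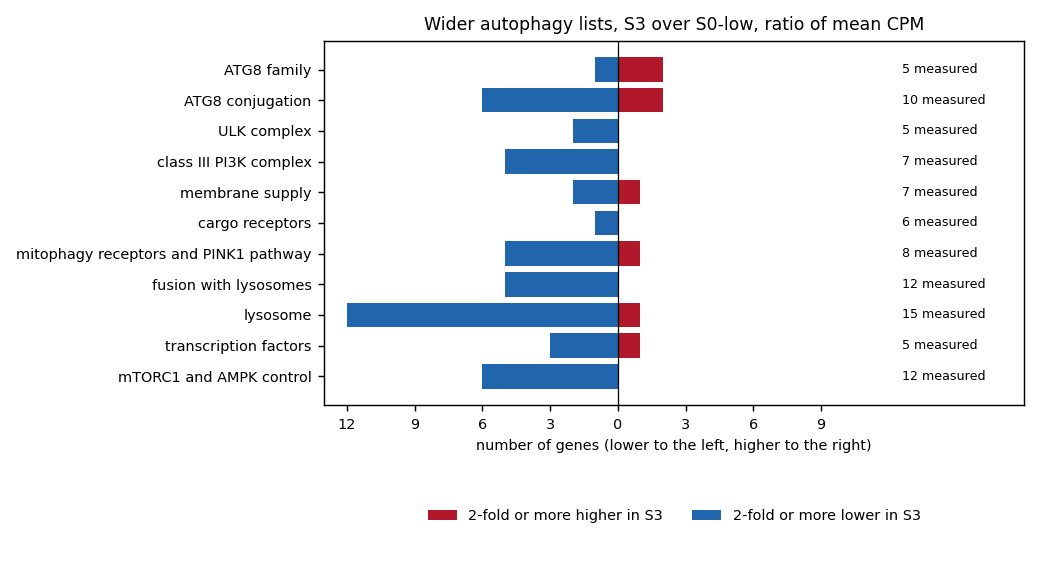
Number of genes at least 2-fold higher (red, to the right) or lower (blue, to the left) in mean CPM in S3 than in S0-low, for 11 groups of autophagy and lysosome genes, with the number measured at the right. In the lysosome group 12 of 15 genes were lower, and only the ATG8 family had more genes higher than lower, 2 against 1, a pattern that in non-globin CPM, not drawn, extends to 4 other groups. The higher genes of the ATG8 family, *Gabarapl2* and *Map1lc3b*, and the lower one, *Gabarapl1*, are themselves members. In UMIs per cell, not drawn, the ATG8 family had 1 gene higher and 1 lower. Over all genes 70.8% were at least 2-fold lower in CPM, and S0-low also holds other cell types.

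UMIs of all 9 genes were also counted in each non-erythroid cluster of the same library, down to 3 UMIs of *Ulk1* in the megakaryocyte-like cells, and no cell type could serve as a zero. *Bnip3l* was at 110 CPM in the hepatocyte-like (188 cells), 197 CPM in the macrophage-like (80 cells), 181 CPM in the myeloid-like (459 cells) and 424 CPM in the megakaryocyte-like cells (96 cells). The last value, with an interval of 376 to 480 CPM, did not differ from S1 beyond counting error, and the others were below S0-low. After thinning to 2000 UMIs, 18.6% of hepatocyte-like cells held a *Bnip3l* UMI. Their median depth was 13055 UMIs and their globin share 1.31%, and whether free RNA gave these UMIs was not tested. *Map1lc3b* was highest among these clusters in the macrophage-like cells, at 405 CPM (345–474), in CPM above S2 and below S4/S5. In non-globin CPM it was 415 (354–486) there, an interval that held the S2 level of 442, against 1782 in S4/S5. Its UMIs per cell there were 2.5, against 2.3 in S4/S5. *Sqstm1* was at 64.7 CPM (43.1–97.5) in the macrophage-like cells, and its interval held the S4/S5 level in CPM. In non-globin CPM it did not, at 66.7 (44.4–100) in these cells and 228 (199–262) in S4/S5. *Gabarapl1* was at 78.7 CPM (60.3–105) in the megakaryocyte-like cells, above all 6 erythroid populations. *Foxo3* was at 10.8 CPM in the hepatocyte-like and 56.3 CPM in the myeloid-like cells. The cluster names come from marker genes among the top genes of each cluster.

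The genes lie on different chromosomes of the mouse assembly GRCm38.p6, apart from *Gabarapl2* (chr8:111940703-111952915) and *Map1lc3b* (chr8:121590438-121598760). *Bnip3l* is at chr14:66985238-67008877, *Pink1* at chr4:138313409-138326296, *Gabarapl1* at chr6:129533192-129542331, *Foxo3* at chr10:42181845-42276695, *Sqstm1* at chr11:50200152-50210820, *Ulk1* at chr5:110784489-110810120 and *Map1lc3a* at chr2:155276364-155278073. RefSeq names 6 pseudogenes after *Gabarapl2* and 1 after *Bnip3l*, none of them a row of the count matrix. How reads that match a copy as well as the gene were counted was not tested, so these 2 levels are uncertain to that extent.

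Promoter sequences from RefSeq (GRCm38.p6, 250 bases before to 50 after the start) were at hand for 7 of the 9 genes, not for *Bnip3l* and *Map1lc3a*. They were searched on both strands for AGATAA and TGATAA, which GATA factors bind, GTAAACA, which FOXO factors bind, and CACGTG, the E-box of TFEB and its relatives. Only *Pink1* held one, a TGATAA at 184 bases before the start. Over all 32851 promoters of the table, the shares were 11.2%, 9.05%, 3.65% and 7.15%. A match is a description, and its absence says only that these letters are not in this window. The *Pink1* sequence is the 250 bases before the start, on the minus strand (chr4:138326297-138326546), with the motif in capitals.
Pink1: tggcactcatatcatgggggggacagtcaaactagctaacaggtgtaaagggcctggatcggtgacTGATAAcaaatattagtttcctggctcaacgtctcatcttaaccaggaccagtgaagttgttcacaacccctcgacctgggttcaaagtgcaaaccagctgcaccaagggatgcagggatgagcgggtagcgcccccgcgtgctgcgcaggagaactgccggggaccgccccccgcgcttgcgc

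*Gabarapl2* and *Gabarapl1* are shown as ATG8 genes with opposite directions from S0-low to S4/S5 in CPM and in UMIs per cell. In non-globin CPM *Gabarapl1* did not differ there beyond counting error (0.907, 0.646–1.24). Each is shown as the 250 bases before the start on the plus strand (chr8:111940453-111940702 and chr6:129532942-129533191), with CpG dinucleotides in capitals. The 250 bases shown held 12 CpG in *Gabarapl2* and 12 in *Gabarapl1*. The full window of 300 bases held 20 CpG in *Gabarapl2* and 12 in *Gabarapl1*, so the difference lay in the bases after the start, which are not shown. Both full-window counts were above the median of 7 over all promoters, and the 7 members ranged from 12 to 35. In the full window *Gabarapl1* was the lowest of the 7, with a GC content of 46.3% against 52.7% for the median promoter.
Gabarapl2: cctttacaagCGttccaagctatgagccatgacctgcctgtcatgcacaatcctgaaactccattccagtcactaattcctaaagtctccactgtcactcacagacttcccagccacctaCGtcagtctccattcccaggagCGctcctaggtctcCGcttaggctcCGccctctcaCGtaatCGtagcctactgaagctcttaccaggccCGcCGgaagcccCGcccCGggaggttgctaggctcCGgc
Gabarapl1: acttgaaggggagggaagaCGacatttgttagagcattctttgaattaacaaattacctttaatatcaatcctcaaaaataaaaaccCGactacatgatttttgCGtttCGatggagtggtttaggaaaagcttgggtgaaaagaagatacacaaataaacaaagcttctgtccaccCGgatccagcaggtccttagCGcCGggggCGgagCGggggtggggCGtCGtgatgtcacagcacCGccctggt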

How the data were processed

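The authors aligned the cDNA reads to mm10 with Cell Ranger and deposited raw counts, UMIs of each gene in each cell and of each antibody. The study's limits were applied to cells (300 to 5000 genes, no more than 9% mitochondrial), and Scrublet removed 128 called doublets at an expected 6%. Centered log ratios of the antibodies were split by k-means, Ter119 into 3 classes, CD71 into 3 in Ter119-low and 2 in Ter119-high cells. Cells over the median plus 2 scaled deviations of 5 summed lineage antibodies were left out, and 217 others fell in no population.

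Levels are means over cells of CPM, as in the study. Counting intervals are 95% (Fay-Feuer for levels, conditional exact for ratios, Clopper-Pearson for shares). No test was possible with 1 library, so genes past 2-fold, with at least 50 UMIs in both populations together, were counted beside the share of all genes past it. The total was 58606632 UMIs, 2510 to 38047 per cell. Counts for S3 over S0-low (15847 genes, 200 changed) were simulated as Poisson draws, the model the intervals assume. Differences between cells of a population other than depth were not simulated. Both populations were drawn from 1 pooled profile apart from the changed genes, so their real difference in globin share was not simulated either. All 200 came out in the direction simulated, 193 of them with the truth inside the interval. Of 9207 unchanged genes, 43 were past 2-fold.

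The members and the gene lists were chosen with earlier results of these data known. Named beside the members were the 3 largest and 3 smallest ratios of the wider lists, *Gabarap*, *Bnip3*, *Ncoa4* and *Park2*, and the 3 genes most like each member, with at least 200 UMIs, some of which are not reported here. Likeness genes needed a range of 1 on the log2 scale, which *Ulk1* itself did not reach. Clusters (Leiden, resolution 0.8, 16 components, 30 neighbours, 2000 variable genes) were named when 3 of their top 10 genes were markers of 1 type, a rule set after they were seen; the other clusters stayed unnamed. Protein sequences were not analysed here. The tools were scanpy 1.11.5, igraph 0.11.9, scikit-learn 1.9.0, scipy 1.17.1, numpy 2.4.6 and pandas 2.3.3 in Python 3.11.15, with seed 7.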

Additional observations from a re-analysis of the deposited data

How the results depend on the processing

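Of 45 ratios (9 genes in 5 comparisons), each recomputed under 11 alternatives, 25 kept their side of 1 in all of them, and 371 of the recomputed values stayed inside the counting interval while 124 did not. The counts of members past 2-fold changed most with the unit and the fold. With 1.5-fold in place of 2-fold, the number higher was 1 in S1 over S0-low, 2 in S2 over S1 and 7 in S3 over S0-low. It was 3 in S3 over S2 and 2 in S4/S5 over S3. The number lower was 1 in S1 over S0-low, 1 in S3 over S0-low and 1 in S4/S5 over S3. The share of all genes past 1.5-fold was not computed, so these counts have no such share beside them. In S3 over S0-low the upper quartile of the ratios of mean CPM over all genes was 0.568. In non-globin CPM, the number higher was 1 in S2 over S1, 7 in S3 over S0-low, 6 in S3 over S2 and 3 in S4/S5 over S3, the number lower in S3 over S0-low was 0, and the wider lists had 23 genes higher and 26 lower. In UMIs per cell, the number higher was 1 in S1 over S0-low, 2 in S3 over S0-low and 0 in S3 over S2. With antibodies as log10(count + 1) or scaled within each cell, the number higher in S3 over S2 was 2, *Pink1* and *Gabarapl2*, and with a Gaussian mixture it was 0. Under these 3 gate settings 1 gene was lower in S1 over S0-low, *Pink1*, at 0.452, 0.475 and 0.464. These gates placed 609 to 638 cells in S0-low in place of 1510. With clusters low in *Klf1* and *Epor* left out as well, an alternative added after seeing the data, the number higher in S1 over S0-low was 1, *Map1lc3a* at 2.14 (1.29–3.65). The share of all genes past 2-fold was not computed under these gates or without these clusters. The causes of these moves were not tested, apart from those that the construction of the alternative gives. Called doublets kept, no mitochondrial limit, a lineage limit at 3 scaled deviations, pooled CPM and no minimum of UMIs changed no count by over 1.5 times. Depth limits *Map1lc3a* and *Ulk1* most. No paired analysis was possible because there is 1 library and no replicate number.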
